A study of Mus musculus with 18 samples.

Results

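The collagen-modifying enzymes described here are the α subunits of prolyl 4-hydroxylase (*P4ha1*, *P4ha2* and *P4ha3*), the lysyl hydroxylases (*Plod1*, *Plod2* and *Plod3*) and the lysyl oxidases *Lox*, *Loxl1* and *Loxl2*. They were chosen by name, with earlier results of these data known, as 9 of the 78239 genes in each count table, and all 9 were found there. With *nsHif1a*, *P4ha2* and *Plod2* rose about 1.5-fold in the retina, calls that were lost when only retinas with *Xist* counts were compared. *P4ha1* rose 1.63-fold in cultured 661W cells, a call that was lost when single libraries were left out or similar replicates were summed. Smaller rises, under the fold threshold, were seen for *P4ha1* in the retina (1.37-fold) and for *P4ha2* and *Plod2* in the cells (1.41-fold and 1.38-fold). Over all libraries, no member's effect differed detectably between the systems. No member passed the thresholds as lower in either system.

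Collagen chains are modified while they are made in the endoplasmic reticulum. Prolyl 4-hydroxylase, a tetramer of catalytic α subunits and the protein disulfide isomerase P4HB, hydroxylates prolines so that the helix is stable at body temperature, and lysyl hydroxylases hydroxylate lysines that then carry sugars or enter crosslinks. Both kinds of enzyme need oxygen, iron, 2-oxoglutarate and ascorbate, whereas lysyl oxidases are secreted copper enzymes that oxidise lysines of collagen and elastin so that the fibres crosslink. *P4ha1*, *P4ha2*, *Plod2* and *Lox* are textbook targets of hypoxia-inducible factor 1 (HIF1). In the eye, these enzymes act on the collagens of vessel walls, Bruch's membrane and the inner limiting membrane.

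In the retina, mRNA was sequenced 3 weeks after a subretinal injection, given 29 to 32 days after birth, of an adeno-associated virus of serotype 2 with either *nsHif1a* (AAV::*nsHif1a*, n = 5) or enhanced green fluorescent protein (AAV::eGFP, n = 5). *nsHif1a* encodes a Myc-tagged mouse HIF1A that is stable in normal oxygen, and in both vectors a mouse rhodopsin promoter (mOP) limits expression to rods, in the part of the retina that the virus reached. The labels give the strain as C57BL/6J, whereas the study's methods name wild-type 129S6 mice. 661W cells, a mouse line derived from a retinoblastoma, were taken 20 h after they received plasmids with *nsHif1a* (n = 4) or eGFP (n = 4) behind the CMV promoter, which is active in most cell types. All groups carried a vector, and no untreated group was analysed here. Nothing in the labels ties the 4 cell libraries of a group to separate cultures, so p-values for the cells cover the spread between these libraries, which may be technical.

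Each library held 12898220 to 17809585 counts. A count of 3 is worth 0.168 to 0.233 CPM by these unscaled totals, a limit for counting error only. Levels of genes are given as TMM-scaled CPM, in which counts are divided by a library's effective total. Total *Hif1a* rose in the cells (log2 fold change (log2FC) 3.26, adjusted *p* = 1.2e-05) and was not detectably different in the whole retina (log2FC 0.05, 95% limits -0.04 and 0.14). Of 10 known HIF targets outside the enzyme families, 9 rose in the retina and 8 in the cells, where 1.08% and 1.21% of all genes tested did. This list was chosen with earlier results of these data known, and the study had measured *Vegfa*, *Bnip3* and *Egln1* in the retina by real-time PCR. The count is therefore a description. Rod markers summed to between 34305 and 48648 CPM in the retina and to between 8.89 and 13.2 CPM in 661W cells, where 6 of 8 rod markers and 5 of 6 cone markers fell below the filter on low counts, so the label of a photoreceptor-like cell is not borne out by these markers. Libraries 1 and 2 of AAV::eGFP and all 5 of AAV::*nsHif1a* held *Xist* counts (19492 to 28595), and AAV::eGFP libraries 3, 4 and 5 held 1 to 3. Genes of the Y chromosome had 0 counts in the former and 2701 to 3509 in the latter. By these counts all treated retinas were female and AAV::eGFP libraries 3, 4 and 5 male, so treatment is partly confounded with sex. In the cells, replicates 1 and 2 of a group resembled each other, as did 3 and 4 (their mean squared difference per gene, relative to sampling noise, was 1.25 to 1.37, and that of the other pairs 3.95 to 13.4), so effects are also given within these sets of replicates.

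The genes lie on 8 chromosomes of GRCm39. *P4ha1* (ENSMUSG00000019916.16) spans chr10:59159092-59209126, *P4ha2* (ENSMUSG00000018906.16) chr11:53981553-54022494 and *P4ha3* (ENSMUSG00000051048.19) chr7:99934686-99968907, all on the plus strand. Among the lysyl hydroxylases, *Plod1* (ENSMUSG00000019055.17) spans chr4:147991574-148021356 on the minus strand, *Plod2* (ENSMUSG00000032374.16) chr9:92424119-92490494 on the plus strand and *Plod3* (ENSMUSG00000004846.12) chr5:137015827-137025502 on the plus strand. The lysyl oxidases are *Lox* (ENSMUSG00000024529.16) on the minus strand, *Loxl1* (ENSMUSG00000032334.12) at chr9:58195014-58220495 on the minus strand and *Loxl2* (ENSMUSG00000034205.18) at chr14:69846209-69933283 on the plus strand. Counts covered exons of the gene's own strand. For 8 members at most 1.87% of the 50-base words of their transcripts occur in another gene, but for *Loxl2* the share is 43.3%, mainly in *Gm21451*, so reads of *Loxl2* could be split or lost and its counts are uncertain.

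Because HIF1 binds the letters ACGTG or GCGTG, the 250 bases before the start site of each canonical transcript were searched for these 2 words on both strands. The windows of *Plod2* and *Plod3* held 4 matches each, those of *P4ha2* and *Lox* 3 each, *P4ha1* 2 and *Plod1* 1, and *P4ha3*, *Loxl1* and *Loxl2* held none. Of 21770 windows of the same length before protein-coding genes, 41.3% held at least 1 match, 7.22% held 3 or more and 2.79% held 4 or more. Windows of a pair of *P4ha* genes, with and without matches, are shown whole, as no annotated exon covers them. The responses of these genes to *nsHif1a* were not compared by a test. In each window the gene's strand is read 5′ to 3′ and matches are in capitals (CACGT and CACGC are matches on the opposite strand). The first is *P4ha1*, chr10:59158842-59159091, with GCGTG at 137 and 100 bases before the start site, and the second is *P4ha3*, chr7:99934436-99934685, with no match.
P4ha1: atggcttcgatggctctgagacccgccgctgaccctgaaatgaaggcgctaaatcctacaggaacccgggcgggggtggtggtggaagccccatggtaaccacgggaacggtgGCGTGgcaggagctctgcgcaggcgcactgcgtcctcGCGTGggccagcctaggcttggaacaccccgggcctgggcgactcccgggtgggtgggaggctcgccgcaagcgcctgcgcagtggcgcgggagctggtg
P4ha3: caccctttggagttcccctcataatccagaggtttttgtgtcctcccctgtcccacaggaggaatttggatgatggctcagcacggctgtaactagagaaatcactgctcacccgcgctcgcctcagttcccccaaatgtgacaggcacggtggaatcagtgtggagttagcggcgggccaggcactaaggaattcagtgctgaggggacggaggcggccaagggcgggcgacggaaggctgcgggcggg

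For *P4ha2* and *Plod2*, the members that rose in the retina, and for *Plod3*, which has as many matches as *Plod2* and did not pass the test in either system, 29 bases around the matches are shown, on the plus strand. Matches begin 107, 78 and 69 bases before the start site of *P4ha2* (chr11:53991631-53991659 and chr11:53991665-53991693). They begin 188, 144, 112 and 99 bases before that of *Plod2* (chr9:92424076-92424104, chr9:92424120-92424148 and chr9:92424159-92424187), and 114, 66, 52 and 16 bases before that of *Plod3* (chr5:137015709-137015737, chr5:137015764-137015792 and chr5:137015806-137015834). Exons of other annotated transcripts cover all these stretches, either of the gene itself or of *B430319G15Rik* (beside *Plod2*) or *Znhit1* (beside *Plod3*) on the opposite strand. A match is a description of the letters and not of binding.
P4ha2, 1 match: tggtgccggtccCACGCggcgcaaggagg
P4ha2, 2 matches: atcgcatACGTGcagcGCGTGgcggctcg
Plod2, upstream match: ggtctagccaggGCGTGccgaggaagctt
Plod2, middle match: agcagaggggcgCACGTtccacaagcaag
Plod2, 2 matches: ccccgGCGTGaggcggtgCACGTaggcgt
Plod3, upstream match: gagcctactgcgCACGCgtactaaccacc
Plod3, 2 matches: cggtgGCGTGcacacatacGCGTGcgcag
Plod3, downstream match: gcttgaagtcattACGTGatgttcccttg

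Without *nsHif1a*, each system had its own set of enzymes. Levels between genes were compared as CPM per kilobase of exons, scaled over all 18 libraries. In the AAV::eGFP retina, *P4ha1*, the main catalytic subunit in most tissues, was the highest at 15.2 ± 0.962 CPM per kilobase (SD, n = 5). *Loxl1* (7.11 ± 0.907), which is needed for elastic fibres, *Plod2* (6.82 ± 0.540) and *Plod3* (6.78 ± 0.567) came next, and the ranges of these 3 genes overlapped. *P4ha2* (5.80 ± 0.425) overlapped with *Plod3*, *Plod1* (5.12 ± 0.267) lay just below the range of *P4ha2*, and *Loxl2* (2.15 ± 0.368) lay below *Plod1*. *P4ha3* (0.219 ± 0.0972) and *Lox* (0.161 ± 0.0259) were lowest and overlapped, with 5 to 16 and 9 to 13 counts per library, so *Lox* RNA was close to the limit of detection in the control retina.

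In the eGFP-transfected cells the order was another one. *Lox*, the founding lysyl oxidase, was highest at 102 ± 3.08 CPM per kilobase (SD, n = 4), followed by *Plod3* at 59.9 ± 1.26, a lysyl hydroxylase that also transfers sugars to hydroxylysine. *P4ha1* (22.9 ± 0.699), *P4ha2* (21.9 ± 1.59) and *Plod2* (20.1 ± 1.09) formed the next step, each overlapping with the one before it. *Plod1* (16 ± 0.519) and *Loxl1* (14.2 ± 1.48) overlapped, as did *Loxl1* and *P4ha3* (12.8 ± 0.356), and *Loxl2* was lowest at 0.308 ± 0.121, with 16 to 35 counts per library. In the plot of levels per kilobase, *Lox* and *P4ha3* show the widest gaps between the systems.

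**Figure D1:**
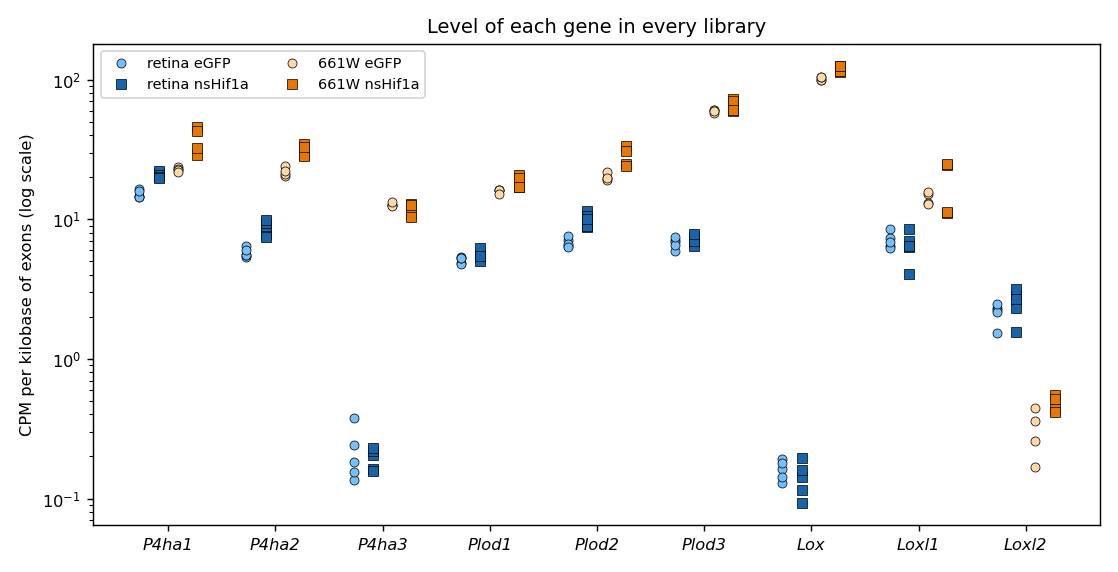
Level of each gene in every library, in CPM per kilobase of exons on a log scale, for retinas (blue, 5 libraries a group) and 661W cells (orange, 4 libraries a group), with circles for eGFP and squares for *nsHif1a*. *Lox* lies near 0.161 in control retinas and near 102 in control cells, whereas *Loxl2* lies higher in the retina.

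All 9 members passed both thresholds (adjusted *p*-value under 0.05 and an absolute log2FC above 0.5) between control retina and control cells, where 81.3% of all 20999 genes did (46.1% higher in the retina and 35.1% lower). Tissue and cell line differ in every respect, so this describes levels only. The log2 difference (retina minus cells) was -9.27 for *Lox* (SE 0.19), -5.84 for *P4ha3* (SE 0.21) and -3.14 for *Plod3* (SE 0.07). *P4ha2* (-1.91), *Plod1* (-1.64), *Plod2* (-1.57) and *Loxl1* (-1.02) were lower by smaller steps, and *P4ha1* differed least at -0.58 (SE 0.09). *Loxl2* was the single member higher in the retina (log2 difference 2.90, SE 0.29), with the reservation on its shared sequence.

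The question in the retina was whether enzymes of collagen modification change when rods express stable HIF1A. Of the 8 members tested there, 2 rose (*P4ha2* and *Plod2*) and none fell, where 1.08% of the 18859 genes tested were called higher and 0.912% lower (1.99% in either direction). Because the members were chosen with earlier results known, such shares, here and for the cells, are a description and not a test of an excess. An adjusted *p*-value under 0.05 alone was reached by 3 members, all higher (at that threshold 3.31% of all genes were higher and 5.79% changed in either direction), and 5 did not reach it. In 3 members every AAV::*nsHif1a* library lay above every AAV::eGFP library, which held for 3.25% of genes, and in none did every treated library lie below (2.69% of genes). The median log2FC of all genes was -0.0021 in the retina and -0.0013 in the cells.

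*P4ha1* was measured at 70.9, 70.4, 70.0, 79.6 and 77.8 CPM in AAV::eGFP retinas and at 103, 107, 101, 96.3 and 96.2 CPM in AAV::*nsHif1a* retinas. The groups did not overlap, and controls 4 and 5 were the highest of theirs. The means were 73.8 ± 4.59 and 101 ± 4.54 CPM (SD, n = 5 each), a log2FC of 0.45 (SE 0.05, 95% limits 0.34 and 0.56, adjusted *p* = 4.7e-04). By *p*-value this was rank 32 of all genes, but the change was under the fold threshold, so *P4ha1* was not called in the retina.

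*P4ha2*, the α subunit best known from cartilage and bone, was at 23.1, 19.4, 20.2, 20.1 and 21.8 CPM with AAV::eGFP and at 27.9, 32.4, 33.8, 26.9 and 35.9 CPM with AAV::*nsHif1a*. Every treated retina was above every control retina, and treated retinas 1 and 4 were the closest to the controls. Mean levels were 20.9 ± 1.5 and 31.4 ± 3.84 CPM (SD, n = 5 each), a rise of 0.59 on the log2 scale (SE 0.08, 95% limits 0.41 and 0.77, adjusted *p* = 0.0019). *P4ha3* had 6 to 10 counts in treated retinas and was removed by the filter on low counts, so it was not tested there.

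**Figure D2:**
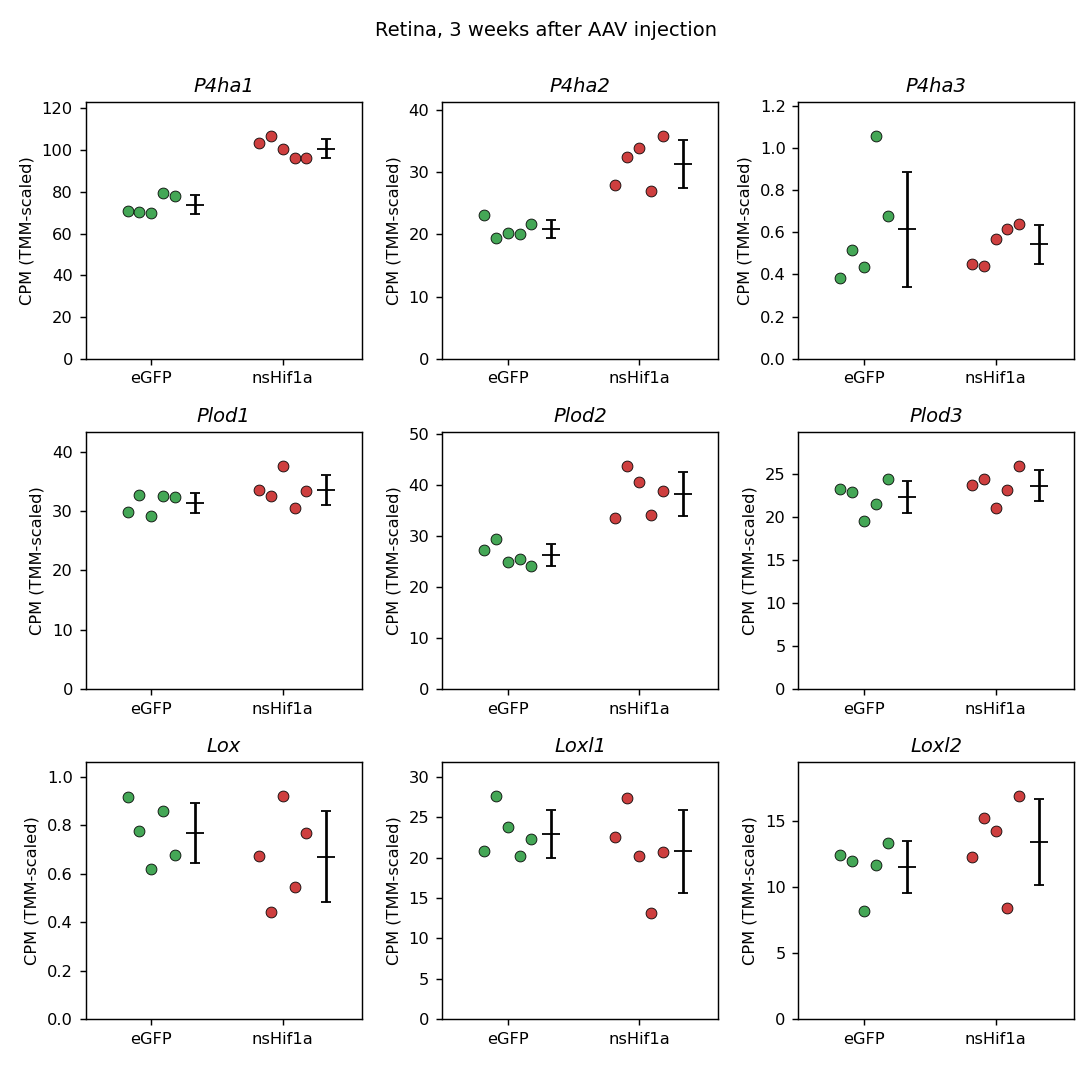
CPM of each gene in the 10 retinal libraries (green, AAV::eGFP; red, AAV::*nsHif1a*; points in replicate order; bars, mean ± SD, n = 5 per group). The groups are apart for *P4ha1*, *P4ha2* and *Plod2* and overlap for the other 6 genes.

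Among the lysyl hydroxylases, *Plod2*, which acts on the telopeptides of collagen and so sets the kind of crosslink, was at 27.3, 29.4, 24.8, 25.4 and 24.2 CPM in the controls and at 33.5, 43.8, 40.6, 34.2 and 38.9 CPM in the treated retinas. Here too the groups were apart, and treated retinas 1 and 4 were again the lowest of their group. The mean rose from 26.2 ± 2.12 to 38.2 ± 4.33 CPM (SD, n = 5 each), with a log2FC of 0.59 (SE 0.08, 95% limits 0.41 and 0.77, adjusted *p* = 0.0021). *Plod1*, which acts on the helix, went from 31.3 ± 1.66 to 33.5 ± 2.58 CPM (log2FC 0.10, 95% limits -0.04 and 0.24, adjusted *p* = 0.38), and *Plod3* from 22.3 ± 1.86 to 23.6 ± 1.80 CPM (log2FC 0.06, 95% limits -0.10 and 0.22, adjusted *p* = 0.68). For both the groups overlapped, and the limits leave out a change as large as the fold threshold.

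No lysyl oxidase passed the test in the retina. *Lox* had 9 to 13 counts per control library and 7 to 13 per treated library (log2FC -0.26, 95% limits -0.82 and 0.31, adjusted *p* = 0.61), so a change by the fold threshold was not detectable at this depth. *Loxl1* was at 20.9, 27.6, 23.8, 20.2 and 22.4 CPM in controls and at 22.5, 27.4, 20.2, 13.1 and 20.7 CPM in treated retinas (log2FC -0.10, 95% limits -0.44 and 0.24, adjusted *p* = 0.76). *Loxl2*, which acts on collagen IV of basement membranes, was at 12.4, 12, 8.17, 11.6 and 13.3 CPM and at 12.2, 15.2, 14.2, 8.39 and 16.9 CPM (log2FC 0.21, 95% limits -0.16 and 0.58, adjusted *p* = 0.51). Treated retina 4 was the lowest of its group for both genes, and its *Col4a1*, a chain of basement membranes, was at 147 CPM against 441 to 591 CPM in the other treated retinas. Without that library the log2FC of *Loxl1* was 0.061.

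The retinal groups also differed in the *Xist* counts, and so in sex. The fit was therefore repeated with the 2 control and 5 treated libraries that have these counts. *P4ha1* then had a log2FC of 0.52 (adjusted *p* = 0.012) and was called, whereas *P4ha2* (0.58, adjusted *p* = 0.058) and *Plod2* (0.46, adjusted *p* = 0.088) no longer passed. With the *Xist* class as a covariate over all 10 libraries, *P4ha1* (0.52, adjusted *p* = 0.0015) and *P4ha2* (0.58, adjusted *p* = 0.019) were called and *Plod2* (0.46, adjusted *p* = 0.033) stayed under the fold threshold. In these fits and in the one reported, the 3 log2FC values lay between 0.45 and 0.59.

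In whole retinas, fewer cells of a type and less RNA per cell cannot be told apart. The 8 rod markers were all lower with AAV::*nsHif1a* (median log2FC -0.23, 4 with an adjusted *p*-value under 0.05 and none past both thresholds), and their sum was between 34305 and 45646 CPM against 43934 to 48648 CPM in controls. Müller glia markers summed to 4756 to 5012 against 4566 to 4997 CPM, endothelial markers to 254 to 324 against 214 to 271 CPM and mural markers to 115 to 175 against 97.4 to 131 CPM, with none of these 18 markers called. *Kdr* alone was at 222 to 278 against 187 to 237 CPM, so the endothelial sums mainly follow that gene and do not measure the number of endothelial cells. The median log2FC was 0.094 for Müller glia (4 of 6 positive), 0.27 for endothelium (6 of 6) and 0.14 for mural cells (4 of 6), and *Slc1a3* of the first and *Kdr* of the second had an adjusted *p*-value under 0.05. Microglia markers had log2FC values above 0 in 6 of 6 (median 0.65, none with an adjusted *p*-value under 0.05), a median as large as the changes of *P4ha2* and *Plod2*, while their sums overlapped (35.4 to 87.2 against 22.2 to 90.2 CPM). The sums of fibroblast markers (33.7 to 158 against 106 to 158 CPM) and of the pigment epithelium (23.7 to 528 against 19.1 to 409 CPM) overlapped too. Within the fibroblast sums, *Fbln1* alone was at 11.8 to 129 against 83.6 to 133 CPM.

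Lens markers summed to 3422 to 35142 CPM in treated and 4041 to 11481 CPM in control retinas, and 8 of 8 had a positive log2FC (median 2.10, none called). Their γ-crystallins took 1.06%, 1.12% and 1.82% of the counts of treated retinas 1, 3 and 4, but 0.13% and 0.096% in treated 2 and 5, within the 0.063% to 0.28% of the controls. Treated retinas 1 and 4 were also the lowest of their group for *P4ha2* and *Plod2*. Treated retina 3 was next to the highest of the group for both (33.8 and 40.6 CPM). With the γ-crystallin level as a covariate the log2FC was 0.47 for *P4ha1* (adjusted *p* = 0.0024), 0.70 for *P4ha2* (adjusted *p* = 0.0015) and 0.70 for *Plod2* (adjusted *p* = 0.0025). Of the 6 gliosis markers, *Edn2* and *Fgf2* were called higher, where 1.08% of all genes tested were. The study names these 2 genes with vascular development and angiogenesis. The other 4 (*Gfap*, *Vim*, *Lcn2* and *Serpina3n*) were not called, and all 6 had a positive log2FC (median 0.66). The part of these cell types in the changes of *P4ha1*, *P4ha2* and *Plod2* was not tested.

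In 661W cells, where *nsHif1a* acts in the transfected cell itself, 1 of the 9 members passed both thresholds as higher (*P4ha1*) and none as lower, against 1.21% and 0.0626% of the 15962 genes tested (1.27% in either direction). An adjusted *p*-value under 0.05 was reached by 4 members, all higher (*P4ha1*, *P4ha2*, *Plod2* and *Lox*), where 2.06% of genes were higher and 2.49% changed in either direction. Without eGFP library 1 or 2, *Plod2* (adjusted *p* = 0.096 and 0.10) and *Lox* (adjusted *p* = 0.11 in both) no longer reached it, nor did *P4ha1*, whereas *P4ha2* did (adjusted *p* = 0.036 and 0.046). In 5 members every *nsHif1a* library was above every eGFP library, which was so for 7.51% of genes, and in none was every one below (6.11% of genes).

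*P4ha1* was at 122, 121, 118 and 117 CPM in the eGFP libraries and at 239, 227, 151 and 166 CPM in the *nsHif1a* libraries. The controls were tight, and treated libraries 1 and 2 stood well above 3 and 4. From 119 ± 2.48 CPM the mean rose to 196 ± 43.6 CPM (SD, n = 4 each), with a log2FC of 0.71 (SE 0.12, 95% limits 0.44 and 0.98, adjusted *p* = 0.022). The call rested on single libraries, since without eGFP library 1 or 2 the adjusted *p*-value was 0.056 and 0.055, and without *nsHif1a* library 1 or 2 the log2FC was 0.45. When each set of similar replicates was summed, which leaves 2 libraries a group, the log2FC was 0.69 and the adjusted *p*-value 0.89.

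*P4ha2* was at 78.1, 82.5, 92.6 and 88.1 CPM with eGFP and at 112, 112, 134 and 128 CPM with *nsHif1a*, and the groups did not overlap. Its means were 85.4 ± 6.35 and 121 ± 11.2 CPM (SD, n = 4 each), a log2FC of 0.50 (SE 0.08, 95% limits 0.33 and 0.67, adjusted *p* = 0.013) that fell just short of the fold threshold. With the replicate number as a block, *P4ha2* passed both thresholds (log2FC 0.51, adjusted *p* = 0.0029), and so did *P4ha1* (0.66, adjusted *p* = 0.041), which makes 2 members. With each set of similar replicates summed, *P4ha2* had a log2FC of 0.50 and an adjusted *p*-value of 0.89, and no member passed. *P4ha3*, an α subunit of low level in most tissues, was at 38.1, 38.6, 37.3 and 40.9 CPM and at 32.7, 31.8, 38.9 and 37.9 CPM (log2FC -0.14, 95% limits -0.30 and 0.02, adjusted *p* = 0.30), so treated libraries 1 and 2 were below the controls and 3 and 4 among them.

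**Figure D3:**
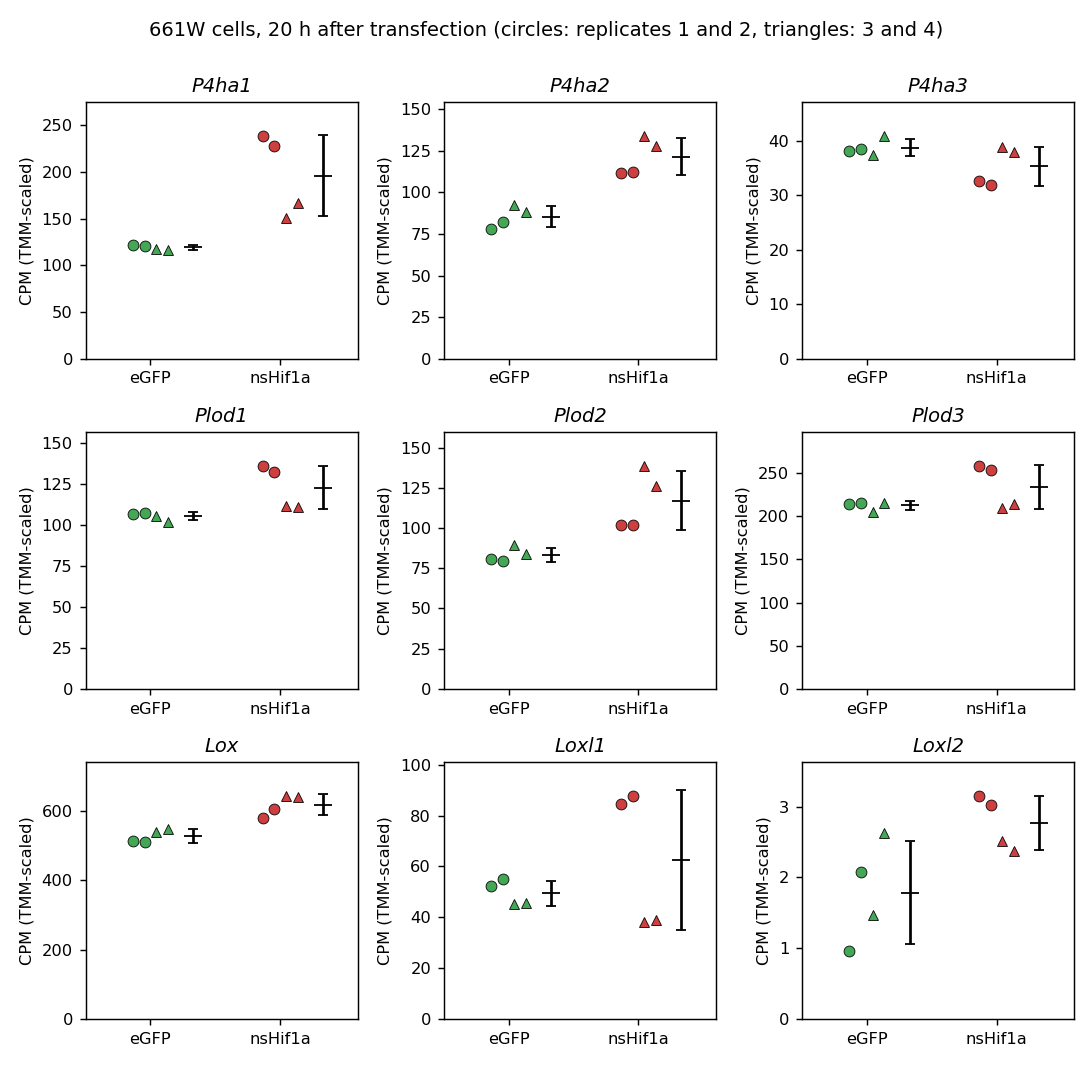
CPM of each gene in the 8 libraries of 661W cells (green, eGFP; red, *nsHif1a*; circles, replicates 1 and 2; triangles, 3 and 4; bars, mean ± SD, n = 4 per group). *P4ha1* and *Loxl1* are highest in *nsHif1a* libraries 1 and 2, and *P4ha2*, *Plod2* and *Lox* in 3 and 4.

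*Plod2* was at 81.0, 79.7, 89.4 and 83.8 CPM in control cells and at 102, 102, 139 and 126 CPM with *nsHif1a*. No library of the treated group reached down to the controls, and the highest values were in treated libraries 3 and 4. The log2FC was 0.46 (SE 0.09, 95% limits 0.25 and 0.67, adjusted *p* = 0.039), below the fold threshold, and it ranged from 0.30 to 0.63 when 1 library was left out. *Plod1* went from 105 ± 2.31 to 123 ± 13.2 CPM (log2FC 0.22, adjusted *p* = 0.10) with no overlap of the groups, and *Plod3* from 213 ± 5.13 to 234 ± 25.8 CPM (log2FC 0.14, adjusted *p* = 0.26) with overlap.

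*Lox*, which spans chr18:52649136-52663110, was at 513, 511, 540 and 549 CPM with eGFP and at 581, 606, 644 and 642 CPM with *nsHif1a*, so all treated libraries were above all controls. The change was small, with a log2FC of 0.22 (SE 0.05, 95% limits 0.12 and 0.33, adjusted *p* = 0.045), and the upper limit lies below the fold threshold. *Loxl1* was at 52.4, 54.9, 45.1 and 45.5 CPM in controls and at 84.6, 87.8, 38.2 and 38.9 CPM in treated cells, so treated libraries 1 and 2 were above every control and 3 and 4 below every control (log2FC 0.26, 95% limits -0.31 and 0.83, adjusted *p* = 0.60). *Loxl2* had 16 to 35 counts per control library and 40 to 56 per treated library (log2FC 0.74, 95% limits 0.07 and 1.40, adjusted *p* = 0.20), and its uncertain counts apply here too. In CPM the groups overlapped (0.961 to 2.63 in controls and 2.37 to 3.15 in treated cells).

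Within the sets of cell replicates, the members moved by different amounts. Between replicates 1 and 2 of the 2 groups, the difference of mean log2 CPM was 0.94 for *P4ha1*, 0.48 for *P4ha2* and 0.34 for *Plod2*, and between replicates 3 and 4 it was 0.43, 0.53 and 0.61. The effect on *P4ha1* was smaller in 3 and 4 (interaction -0.51, SE 0.06, adjusted *p* = 5.5e-06) and that on *Plod2* larger (0.27, SE 0.07, adjusted *p* = 0.011), in an interaction test that 19.6% of all genes passed and that was added after the data were seen. For *P4ha2* (0.05, adjusted *p* = 0.67) and *Lox* (0.03, adjusted *p* = 0.61) no such difference was detectable. *Hif1a* itself was higher in treated libraries 3 and 4 (33418 and 30804 counts) than in 1 and 2 (21721 and 17668 counts), so *P4ha1* was highest where *Hif1a* was lower. What the sets stand for is not given in the labels, and their part in the effects was not tested beyond these values.

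The effects in retina and cells were compared with the interaction term over all 18 libraries. None of the 9 members differed at an adjusted *p*-value under 0.05 in limma, where 2.33% of 20999 genes did, and none had an unadjusted *p*-value under 0.05. The difference of the log2 effects (retina minus cells) was -0.18 for *P4ha1* (95% limits -0.46 and 0.09), 0.06 for *P4ha2* (-0.18 and 0.31), 0.08 for *Plod2* (-0.20 and 0.37) and -0.08 for *Plod1* (-0.28 and 0.11). These limits leave room for differences up to these sizes and do not show that the effects are alike. For *Lox* (-0.48, limits -1.07 and 0.10), *Loxl2* (-0.48, limits -1.36 and 0.40) and *Loxl1* (-0.20, limits -0.87 and 0.47) the limits are wide. Without *nsHif1a* library 3 or 4 of the cells, *P4ha1* (-0.47 and -0.46, adjusted *p* = 0.0024 and 0.0057) and *Loxl1* (-0.80 in both, adjusted *p* = 0.037 and 0.035) had smaller effects in the retina than in the cells.

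**Figure D4:**
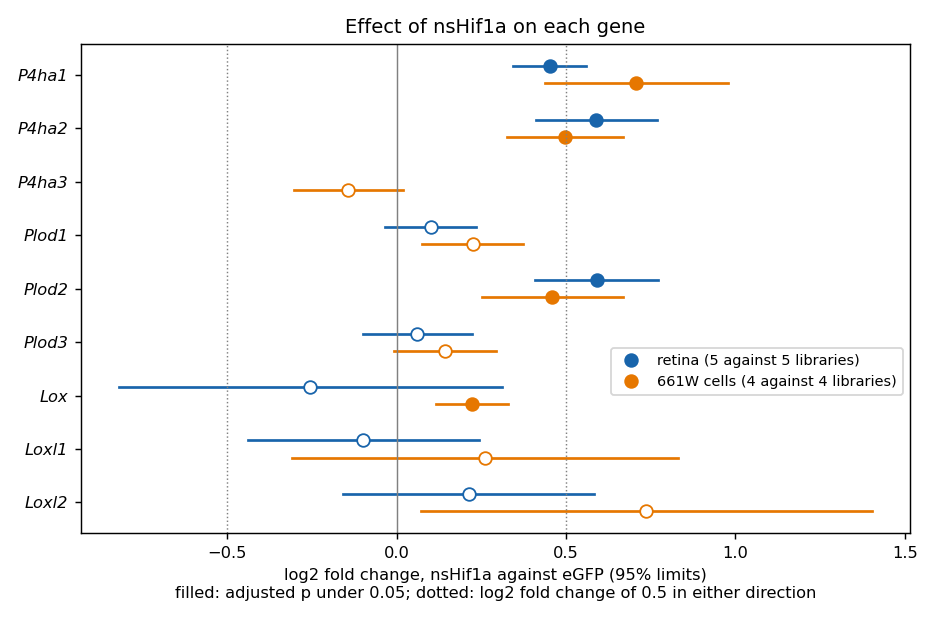
Log2 fold change of *nsHif1a* against eGFP for each gene, with 95% limits, in retina (blue) and 661W cells (orange), with filled points for an adjusted *p*-value under 0.05 and dotted lines at the fold threshold of 0.5 in either direction. *P4ha1*, *P4ha2* and *Plod2* have filled points in both systems, between 0.45 and 0.71, *Lox* in the cells alone, and *P4ha3* was not tested in the retina.

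The balance within each group of 3 genes was described as each member's share of their summed level per kilobase, with no test. *Loxl3* and *Loxl4* are not in these sums, so shares of lysyl oxidases are shares of *Lox*, *Loxl1* and *Loxl2* alone. *P4ha1* made up 71.7% ± 1.59 (SD, n = 5) of the α subunits in control retinas and 70.1% ± 2.80 with AAV::*nsHif1a*, and *P4ha2* 27.3% ± 1.93 and 29.3% ± 2.75. The summed α subunits went from between 90.3 and 101 CPM to between 124 and 140 CPM, so the pool was larger in every treated retina with little shift between *P4ha1* and *P4ha2*. Among the lysyl hydroxylases *Plod2* went from 36.4% ± 2.06 to 43.9% ± 2.58, with lower shares of *Plod1* (27.4% to 24.3%) and *Plod3* (36.2% to 31.8%). Of the RNA of these 3 lysyl oxidases, most in the retina was *Loxl1* (75.4% ± 4.31 and 70.8% ± 3.59), with at most 2.14% from *Lox* in any library.

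In the cells the α subunits were spread over all 3 genes. *P4ha1* held 39.7% ± 1.69 in controls (SD, n = 4) and 46.3% ± 7.90 with *nsHif1a*, *P4ha2* 38.1% ± 2.03 and 39.1% ± 5.66, and *P4ha3* 22.2% ± 0.875 and 14.6% ± 2.25. *P4ha3* was the member whose share was lower in every treated library (12.7% to 16.9%, against 21% to 23.1%), while its own CPM did not pass the test. *Plod3* was the largest lysyl hydroxylase (62.4% ± 1.20 and 58.4% ± 3.94), with *Plod2* at 21% ± 1.17 and 25.2% ± 4.97. *Lox* made up 87.6% ± 1.41 and 86.8% ± 5.53 of the sum of *Lox*, *Loxl1* and *Loxl2*. The omitted *Loxl4* and *Loxl3* were at 255 and 70.5 CPM in control cells, above *Loxl1* at 49.5 CPM.

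**Figure D5:**
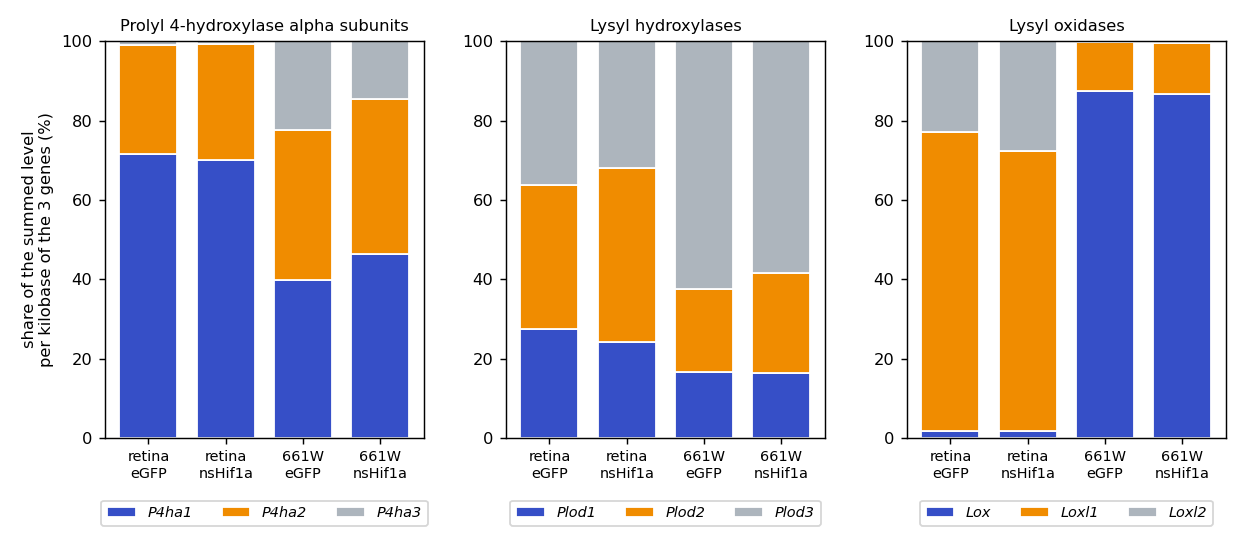
Mean share of each gene (percent) in the summed level per kilobase of the 3 genes shown in its panel, for the 4 groups (n = 5 retinas or 4 cell libraries per group). *P4ha1* leads in the retina at 71.7% and 70.1%, *P4ha3* takes 22.2% and 14.6% of the α subunits in the cells, and *Lox* holds 87.6% and 86.8% of the sum of *Lox*, *Loxl1* and *Loxl2* in the cells but 1.73% and 1.61% in the retina.

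Around these enzymes, the pathway was covered by 66 listed genes for partner subunits, other lysyl oxidases, procollagen handling, collagens, elastic fibres and cofactor supply. Past both thresholds, 2 of the 64 tested rose in the retina and 2 of the 55 tested in the cells, where 1.08% and 1.21% of all genes did, and none fell. In both systems the 2 were the glucose transporters *Slc2a1* and *Slc2a3*, which also carry the oxidised form of ascorbate. *Slc2a1* is also among the known HIF targets counted above. Without the cofactor genes, none of the 58 genes tested in the retina or the 49 tested in the cells was called. *Slc2a3* rose from 7.84 ± 0.725 to 29.7 ± 8.21 CPM in the cells (log2FC 1.86) and from 90.0 ± 4.35 to 134 ± 5.69 CPM in the retina (log2FC 0.58). The median log2FC of the 64 and 55 genes was -0.01 and 0.12. None of the 27 listed collagens was called in either system (27 tested in the retina, median log2FC -0.10, and 22 in the cells, median 0.21).

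*P4hb*, the β subunit that the α subunits need, was at 177 ± 7.05 CPM in control and 204 ± 7.50 CPM in treated retinas (SD, n = 5 each), with every treated retina above every control (log2FC 0.20, SE 0.04, adjusted *p* = 0.010), and was below the fold threshold. In the cells it went from a mean of 1231 to 1314 CPM (n = 4 each, log2FC 0.08) with overlap. Among the other partners, *Fkbp10*, which assists *Plod2*, was near its control level in the retina (10.1 to 11.3 CPM) and in the cells (308 to 312 CPM). *Serpinh1*, the collagen chaperone HSP47, had 314 to 427 counts per retina but 0 to 9 in the cell libraries, where it was not tested. *Loxl4* was at 255 ± 13.9 and 229 ± 5.15 CPM in the cells (log2FC -0.15, adjusted *p* = 0.13), with every treated library below every control, and *Loxl3* at 70.5 ± 4.04 and 85.5 ± 22 CPM (log2FC 0.26, adjusted *p* = 0.34).

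The fibrillar collagens, on which these enzymes act, had a median log2FC of 0.55 in the cells, with 8 of 9 positive and none past the adjusted *p*-value threshold, and of -0.10 in the retina. *Col5a3* had a log2FC of 0.95 (adjusted *p* = 0.057) and *Col3a1* went from 378 ± 29.6 to 622 ± 297 CPM, a spread in the treated cells (SD) wider than the change. The basement membrane and other collagens had a median of 0.18 in the cells and -0.11 in the retina. Of the cofactor genes, *Slc23a2*, an ascorbate transporter, was higher in the cells at an adjusted *p*-value of 0.032 (74.2 ± 2.53 to 87.1 ± 2.47 CPM, log2FC 0.23), under the fold threshold.

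For each called member, the genes with the most similar pattern over the libraries of a system were looked up by Pearson's correlation of log2 CPM, as a description, since all libraries share the contrast and the scaling. For *P4ha2* in the 10 retinas these were *Fosb* (r = 0.968), *Pkig* (0.967) and *Tubb2a* (0.966), and for *Plod2* they were *Gm12033* (0.973), *Spats2* (0.972) and *Ruvbl2* (0.967). For *P4ha1* in the 8 cell libraries, *Pnpt1* (0.996), *Mx1* (0.995) and *Aldh18a1* (0.994) came first. By Spearman's correlation, 2 of these 9 genes remained among the first 3.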

How the data were processed

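Retinal and 661W libraries were stranded, and per the labels and the methods the authors aligned paired reads to GRCm39 and counted them per gene with featureCounts. The authors deposited whole-number counts without filtering or normalization, and all 18 columns were mapped to samples. Such counts can miss reads that match several genes. Here, filterByExpr (minimum count 10), TMM (edgeR 4.0.16), voomWithQualityWeights, lmFit and eBayes (limma 3.58.1, R 4.3.3) were run for retinas (18859 genes) and cells (15962 genes), and over all 18 libraries for the interaction. *P*-values were adjusted by the Benjamini-Hochberg (BH) method over all genes tested, and a gene was called at an adjusted *p*-value under 0.05 and an absolute log2FC above 0.5. Genes named are the 9 members, listed pathway, HIF and marker genes, and, for each called member, the 3 most correlated genes. The members and lists were chosen with earlier results of these data known. *Gm21451*, *Col3a1*, *Col4a1*, *Col5a3*, *B430319G15Rik* and *Znhit1* were singled out for their values or position. Coordinates and sequences are from GRCm39 with gencode M39, which held 78168 gene IDs of the tables. The procedure was tested on simulated counts. As alternatives, other size factors, DESeq2 1.42.0, the quasi-likelihood test of edgeR, unweighted voom, filters and fold thresholds, the replicate block, *Xist* and crystallin covariates, sets of replicates and omission of each library were tried. Same-numbered cell libraries deviated together (r = 0.227 to 0.269 across genes, from the numbers in the labels), whereas retinal ones did not (r = -0.148 to 0.138), so the block is given for the cells. For cell replicates 1 and 2, however, the same-numbered library was not the closest of the other group. Pairing by number therefore cannot be told apart from the sets of similar replicates. Protein sequences were not used here.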

Additional observations from a re-analysis of the deposited data

Results flagged for a closer look

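In 1 of 36 groups of values (9 genes in 4 groups), 1 library stood apart from its group. *Plod3* was at 204.9 CPM in eGFP library 3 of the cells, below the other 3 (214 to 216 CPM). Chance alone would mark about 1 in 20 groups in this way.

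Effects of *nsHif1a* differed between replicates 3 and 4 and replicates 1 and 2 of the cells for 5 members, by limma's interaction term with BH adjustment, which 19.6% of all genes passed. The log2 differences were -0.51 for *P4ha1* (adjusted *p* = 5.5e-06), -0.23 for *Plod1* (adjusted *p* = 0.0059), 0.27 for *Plod2* (adjusted *p* = 0.011), -0.24 for *Plod3* (adjusted *p* = 0.0010) and -0.92 for *Loxl1* (adjusted *p* = 4.3e-08). *Loxl1* was higher with *nsHif1a* by 0.68 in replicates 1 and 2 and lower by a log2 difference of -0.23 in 3 and 4. *Plod1* and *Plod3* differed by 0.33 and 0.25 in the first set and by 0.10 and 0.01 in the second. What these sets stand for was not tested.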

How the results depend on the processing

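In the retina, the same 2 members were called by edgeR's quasi-likelihood test, DESeq2, other size factors and filters, the replicate block and without any 1 library (2 to 2), 3 without the fold threshold, 0 at a threshold of 1 and 1 (*P4ha1*) in the libraries with *Xist* counts alone. With the *Xist* class as a covariate *P4ha1* and *P4ha2* were called. In the cells, 2 members (*P4ha1* and *P4ha2*) were called by the quasi-likelihood test, DESeq2, voom without weights, no filter, the replicate block and with the set of replicates as a covariate, 4 without the fold threshold, 0 at a threshold of 1, 0 with summed pairs, and 0 to 3 without 1 library (0 without eGFP 1 or 2). For the numbered pairing, the block changed no call in the retina. The difference of effects had 0 members, and 0 to 2 without 1 library (2 without *nsHif1a* 3 or 4 of the cells). Control retina against control cells gave 9 members (9 to 9 without 1 library) and 8 with RLE factors. Leading members by share were alike in 11 of 12 cases by counts alone (*Plod1* led in control retinas), and 2 of 9 most similar genes remained by Spearman's correlation.

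*Loxl1* reversed in the retina with the crystallin covariate (0.18) and ranged from -0.29 to 0.061 without 1 library, and in the cells it was -0.23 within replicates 3 and 4 and ranged from -0.29 to 0.74. Without 1 library, differences of effects ranged from -0.015 to 0.19 for *P4ha2*, -0.24 to 0.20 for *P4ha3* (0.041 without weights), -0.22 to 0.0043 for *Plod1*, -0.044 to 0.29 for *Plod2*, -0.18 to 0.044 for *Plod3* and -0.80 to 0.19 for *Loxl1*. The cause was not tested. Over all genes, the alternatives gave at least 64 higher and 37 lower in the retina (203 and 172 as reported) and at most 3.31% and 2.47% of genes, without the fold threshold. In the cells, the alternatives other than omission of a library gave 0 to 519 higher and 0 to 73 lower (193 and 10 as reported). Without 1 library, the cells had 82 to 1201 higher and 2 to 682 lower, so these totals depended strongly on single libraries. Few counts limit *Lox* and *P4ha3* in the retina and *Loxl2* in the cells.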
